A study of Mus musculus with 4 samples.

Results

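The dual oxidases Duox1 and Duox2, their maturation factors Duoxa1 and Duoxa2, and the NADPH oxidase genes Nox1, Nox4 and Cyba were followed in ureters of mouse embryos. These 7 genes were found by name on the array, where 15 of 39429 gene probes measure them. They were chosen from their ratios of mutant over control RNA, so those ratios are given as a description, with no p-value, and a call made on them supports nothing. Of the 7 genes, 5 passed the filter on dim probes and were among the 21518 genes tested. The other 2, Duoxa2 and Nox1, were not well above background on enough arrays.

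Dual oxidases are transmembrane enzymes that pass electrons from NADPH to oxygen at the apical surface of epithelia and release hydrogen peroxide. They leave the endoplasmic reticulum only with a maturation factor, Duoxa1 for Duox1 and Duoxa2 for Duox2, and each oxidase gene lies beside the gene of its own factor. They are best known from the thyroid, where Duox2 supplies the peroxide for hormone synthesis, and from airway, gut and bladder epithelium. Nox1 and Nox4 are catalytic subunits of the same family, and Cyba encodes p22phox, the membrane partner that Nox1, Nox4 and the phagocyte oxidase need and the dual oxidases do not.

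Whole ureters were dissected from NMRI embryos at E15.5, in mid to late gestation. The mutant genotype is Pax2-cre/+; Trp63(dN-flox/dN-flox), called cKO here, in which a cre driven from Pax2 recombines floxed alleles of ΔNp63, the p63 form made in basal epithelial cells. Controls are Trp63(dN-flox/?), with the second allele not given and no cre listed, so effects of cre and of ΔNp63 loss cannot be told apart. Each of 4 arrays held 1 cKO and 1 control RNA of the same labelled sex, female in replicates 1 and 2 and male in replicates 3 and 4, with cKO in red in replicates 1 and 3 and in green in replicates 2 and 4. Nothing in the labels says whether an RNA came from 1 embryo or from several, so the p-values measure the spread between these RNAs.

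Median spot signals were 382 to 416 in green and 519 to 617 in red, and 71.8% to 77.0% of gene spots were well above background. Trp63, the targeted gene, had log2 ratios of -1.39, -1.18, -1.30 and -1.62 in replicates 1 to 4 (mean -1.37 ± 0.18, SD, n = 4). The sources used here do not say whether its probe lies in the floxed segment. The RNAs of 2 arrays departed from their sex labels. The Y-linked gene Eif2s3y stood at 8.81 and 8.96 (control and cKO, normalised log2 intensity) in replicate 1, labelled female, against 6.49 and 6.55 in the other female array and 12.5 to 12.7 in the male arrays. The X-linked RNA Xist stood at 9.45 and 9.68 in replicate 4, labelled male, against 6.53 and 6.79 in the other male array and 12.6 in both female arrays. Cause and extent of this were not tested.

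Duoxa1 had the lowest ratios of the group. Its bright probe (A_55_P2046443, chromosome 2, 122129336 to 122129395, minus strand, mm9) read 9.39, 9.47, 9.99 and 9.51 in the control RNAs and 7.90, 7.98, 8.11 and 7.995 in the cKO RNAs of replicates 1 to 4 (normalised log2 intensity). All 4 cKO levels lay below all 4 control levels, and the control RNA of replicate 3 was the highest. The log2 ratios were -1.48, -1.48, -1.88 and -1.52, which average to -1.59 ± 0.20 (SD, n = 4), a 3.02-fold lower level in cKO. This was rank 18 among the decreases of the 21518 genes tested.

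A further Duoxa1 probe is split over 682 bases of the genome and so matches spliced RNA. It is shown here because it gave the same direction at a smaller size, beside the split probes of Nox4 and Cyba, whose mean ratios were -0.13 and 0.09. The sequences are those in the scanner files and are written in lower case.
Duoxa1, A_66_P120494, chr2:122131391-122132072, minus strand, mm9: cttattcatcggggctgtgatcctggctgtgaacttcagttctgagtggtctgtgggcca
Nox4, A_51_P369311, chr7:94472458-94487478, plus strand, mm9: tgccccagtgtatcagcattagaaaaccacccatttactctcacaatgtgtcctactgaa
Cyba, A_51_P131800, chr8:124950893-124951161, minus strand, mm9: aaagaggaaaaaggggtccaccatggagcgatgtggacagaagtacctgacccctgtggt

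The split Duoxa1 probe A_66_P120494 gave log2 ratios of -0.66, -0.71, -1.12 and -0.68 (mean -0.79 ± 0.22, SD, n = 4). Its levels were 7.50 to 8.05 in control and 6.84 to 6.95 in cKO RNAs, again without overlap. The main correction adds an offset of 50 to every intensity, which draws the ratios of dim probes towards 0. On the scanner software's processed signals, which have no such offset, the split probe gave -1.51 ± 0.36 and the bright probe -1.93 ± 0.22. The processed signals of the bright probe were 130, 228, 257 and 207 in control and 37.5, 64.5, 53.7 and 58.2 in cKO RNAs. The third Duoxa1 probe, A_55_P2186499, lies 1274 bases from the bright one and 206 bases from a probe of Duoxa2, and it was not well above background in any RNA.

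Duox1, the oxidase that Duoxa1 serves, was dim and also lower. Its single probe (A_51_P475138, chromosome 2, 122173491 to 122173550, plus strand, mm9) was well above background in all 16 control and all 16 cKO spots. It read 7.46, 7.44, 7.69 and 7.44 in control and 6.93, 7.04, 6.98 and 6.92 in cKO RNAs. The groups did not overlap, and replicate 3 again held the highest control level. The log2 ratios were -0.53, -0.41, -0.71 and -0.52, which average to -0.54 ± 0.13 (SD, n = 4), a 1.46-fold lower level.

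The size of the Duox1 decrease depends on the background correction. Processed signals were 23.2, 36.7, 38.5 and 33.3 in control against 11.4, 21.4, 14.7 and 16.2 in cKO RNAs, which gives a log2 ratio of -1.06 ± 0.25 or 2.09-fold lower. The authors' deposited table of log2 ratios lists -0.89, -0.78, -1.29 and -0.86 for the same probe. Within an array the 4 spots of the probe had an SD of 0.07 to 0.18 on the log2 ratio. The order of the arrays was the same under both corrections at its ends, with replicate 3 lowest and replicate 2 highest.

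Duox2, the thyroid and gut oxidase, was at the edge of detection. Its brighter probe (A_55_P2100505, chromosome 2, 122109146 to 122109205, minus strand) was well above background in 11 of 16 control and 13 of 16 cKO spots and passed the filter through the cKO RNAs. Levels were 6.75, 6.66, 6.75 and 6.62 in control and 6.68, 6.71, 6.66 and 6.79 in cKO RNAs, which overlapped. The log2 ratios were -0.07, 0.06, -0.08 and 0.17, a mean of 0.02 ± 0.12. They were negative where cKO was in red and positive where it was in green, and the sign of the mean turned with median centring (-0.03). Processed signals were only 6.71 to 13, and their log2 ratios were -0.20, 0.28, -0.23 and 0.52 (mean 0.09 ± 0.37). At this signal a ratio near 0 does not show that the level was unchanged. The other Duox2 probe, A_55_P1974760, was not well above background in any of the spots.

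Duoxa2, the partner of Duox2, was not measurable at this signal. Its brighter probe (A_55_P2107374, chromosome 2, 122128268 to 122128327, plus strand) was above background in 7 control and 6 cKO spots of 16 each, and the other probe in none. No fold is given for it. Its levels of 6.53 to 6.62 in control and 6.51 to 6.59 in cKO RNAs overlapped.

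**Figure D1:**
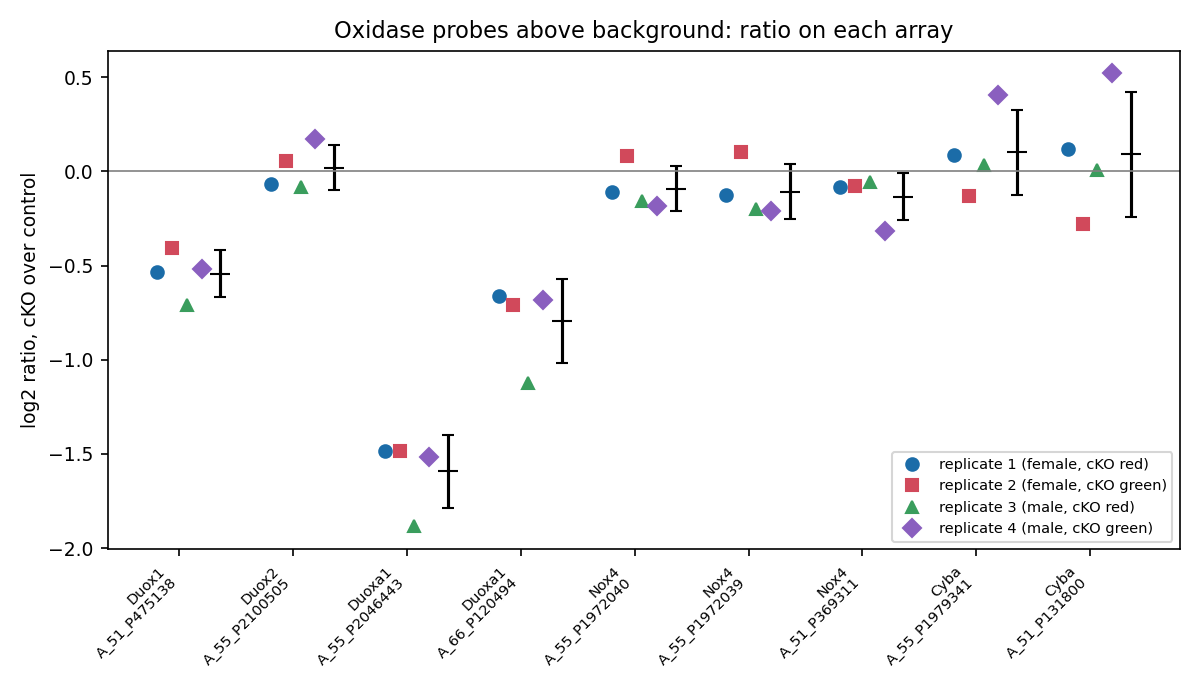
Log2 ratio of cKO over control (y axis) for the 9 oxidase probes that passed the filter on dim probes, with 1 marker per array and the mean ± SD of the 4 arrays in black. Duox1 and both Duoxa1 probes lie below 0 on all 4 arrays, from -0.41 down to -1.88. The split Nox4 probe also lies below 0 on all 4, from -0.06 to -0.32, and the other probes lie on either side of 0.

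Nox4 makes hydrogen peroxide largely by itself once bound to p22phox and is best known from kidney, vessels and smooth muscle. Its brightest probe (A_55_P1972040, chromosome 7, 94547025 to 94547084, plus strand, mm9) read 11.85, 11.84, 12.12 and 12.14 in control and 11.74, 11.92, 11.96 and 11.96 in cKO RNAs. The groups overlapped, and the ratio was -0.09 ± 0.12 (SD, n = 4). A probe that neighbours it (A_55_P1972039) gave -0.11 ± 0.14. The split probe A_51_P369311 gave -0.08, -0.08, -0.06 and -0.32, a mean of -0.13 ± 0.12, and there the cKO levels of 9.49 to 9.54 all lay below the control levels of 9.57 to 9.82.

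Cyba, the p22phox gene, was bright in every RNA. Its brighter probe (A_55_P1979341, chromosome 8, 124948726 to 124948785, minus strand, mm9) read 13.95, 14.18, 13.98 and 13.81 in control and 14.04, 14.05, 14.01 and 14.22 in cKO RNAs. The log2 ratios were 0.09, -0.13, 0.04 and 0.41, a mean of 0.10 ± 0.22 (SD, n = 4), with overlapping groups. Without replicate 4 the fitted ratio, with the dye term, turned to -0.03. The split probe A_51_P131800 followed the same order of arrays, at 0.12, -0.28, 0.01 and 0.52 (mean 0.09 ± 0.33).

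Nox1, the colon oxidase, was below detection. Its brighter probe (A_55_P1997906, chromosome X, 130621740 to 130621799) was above background in 1 of 16 control and 2 of 16 cKO spots, and the other probe (A_51_P364714) in none. No direction can be read from it.

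**Figure D2:**
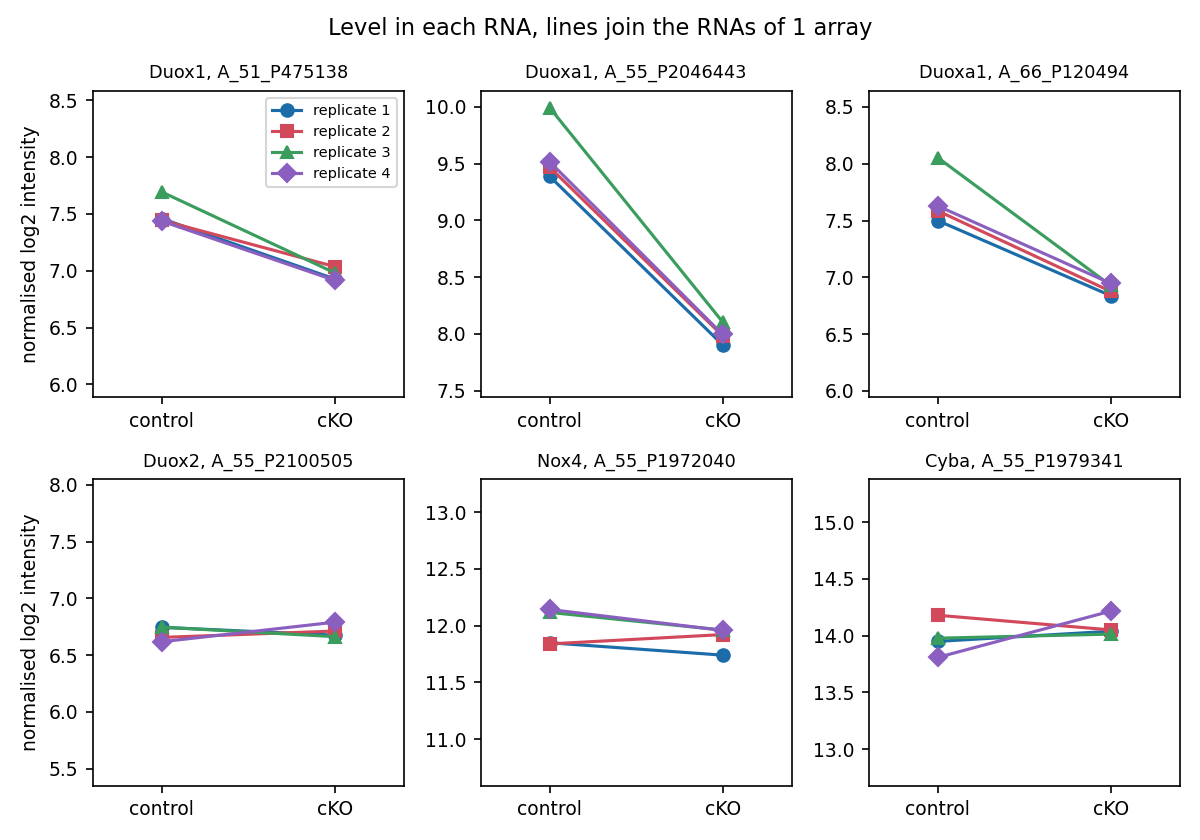
Normalised log2 intensity of control and cKO RNA for 6 probes, with a line joining the 2 RNAs of each array; every panel spans the same range, and levels of different probes are not comparable. The control RNA of replicate 3 is the highest for Duox1 and for both Duoxa1 probes, while the cKO levels lie close together.

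In the fit over all genes (limma, adjusted p under 0.05, Benjamini-Hochberg), 257 of 21518 genes changed, which is 1.19%. Of the 5 members tested, Duoxa1 and Duox1 were among the 150 lower ones (0.697%), and Duox2, Nox4 and Cyba were not called. This contrast chose the members, so nothing is read from that count. On all 4 arrays the ratio was below 0 in 7.65% of genes and above 0 in 7.69%. Levels without overlap were lower in cKO in 3.3% of genes and higher in 3.03%. Of all kept probes, 1.01% passed the threshold, among them the split Duoxa1 probe, and 0.497% of genes were called higher. The Duox1 call was lost without replicate 3, where its fitted ratio, with the dye term, was -0.50, and when dim probes were kept. The RNAs of 2 arrays depart from their sex labels. Without replicate 1 the fitted ratios were -1.69 for Duoxa1 and -0.59 for Duox1, and without replicate 4 they were -1.58 and -0.51.

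The 4 genes lie next to each other on chromosome 2, in the order Duox2, Duoxa2, Duoxa1, Duox1 in the RefSeq gene table (GRCm38.p6). Each oxidase points away from its own maturation factor. The start sites in the RefSeq promoter table lie 1942 bases apart for Duox1 and Duoxa1 and 673 bases apart for Duox2 and Duoxa2. The 5 protein-coding genes on either side were looked at after the ratios of the members were known. Of these 10 genes, 8 were tested, with mean log2 ratios from -0.18 (Spata5l1) to 0.12 (Trim69). The direct neighbours gave -0.13 ± 0.16 (Sord, sorbitol dehydrogenase) and -0.15 ± 0.25 (Shf). Duoxa1 and Duox1 were chosen from their ratios, so their standing apart from these neighbours was set in advance and supports nothing. Over all 21518 genes 1.19% were called, so uncalled neighbours are the usual case. Duox2 was at the edge of detection and Duoxa2 was not tested, so the 4 genes cannot be compared with each other.

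**Figure D3:**
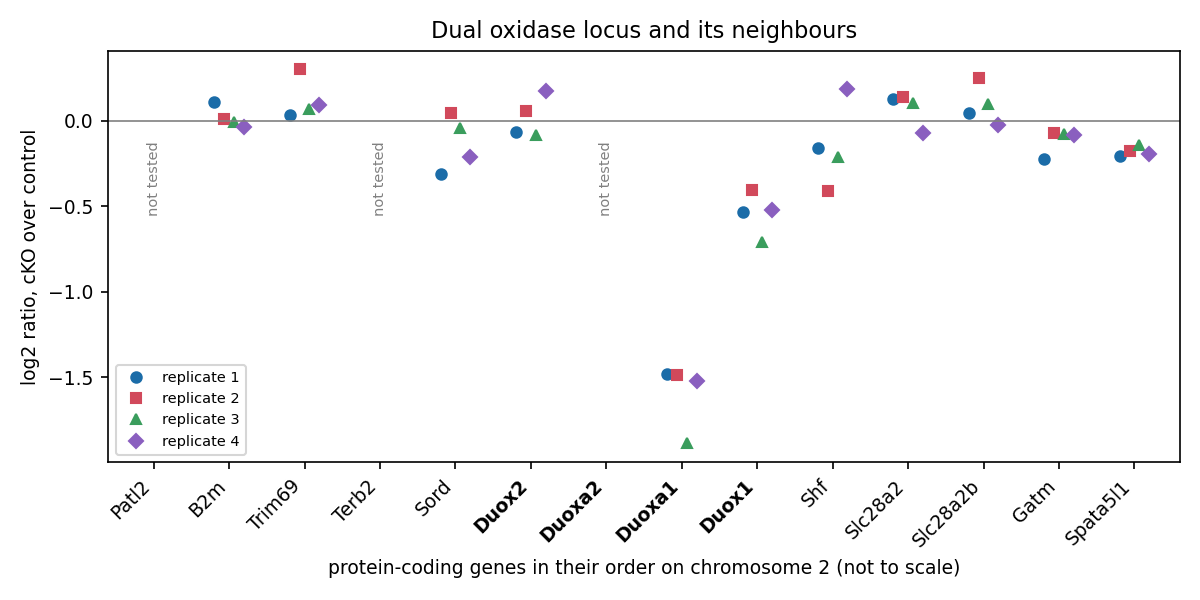
Log2 ratio of cKO over control on each array (y axis) for the protein-coding genes in their order on chromosome 2 (x axis, not to scale), members in bold. Duoxa1 and Duox1 lie at -0.41 or lower on every array, and no other tested gene in the window has a mean beyond -0.18 or 0.12. Patl2, Terb2 and Duoxa2 were not tested.

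The 250 bases before each of the 4 start sites are shown because Duoxa1 and Duox1 were low together. Duox2 was too dim for its ratio near 0 to show an unchanged level, and Duoxa2 was not measurable. They come from RefSeq (GRCm38.p6), read along the strand of the gene. Capitals mark matches, on either strand, to the TATA box (TATAAA), the GC box (GGGCGG), the CCAAT box (CCAAT) and the AP-1 site (TGANTCA). The p53 family half-site was searched too. Other Duox1 transcripts of the RefSeq table start elsewhere, so its window covers 1 of its starts.
Duoxa1, chr2:122313731-122313980, minus strand, GRCm38.p6: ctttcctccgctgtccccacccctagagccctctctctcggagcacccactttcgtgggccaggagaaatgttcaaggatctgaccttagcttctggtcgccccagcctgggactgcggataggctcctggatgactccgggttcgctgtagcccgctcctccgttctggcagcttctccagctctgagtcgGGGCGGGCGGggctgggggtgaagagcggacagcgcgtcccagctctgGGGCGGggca
Duox1, chr2:122315422-122315671, plus strand, GRCm38.p6: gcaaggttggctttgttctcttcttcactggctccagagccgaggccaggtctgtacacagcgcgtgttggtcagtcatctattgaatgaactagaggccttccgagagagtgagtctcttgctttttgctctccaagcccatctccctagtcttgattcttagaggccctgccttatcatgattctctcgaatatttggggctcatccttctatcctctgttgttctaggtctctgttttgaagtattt
Duoxa2, chr2:122298650-122298899, plus strand, GRCm38.p6: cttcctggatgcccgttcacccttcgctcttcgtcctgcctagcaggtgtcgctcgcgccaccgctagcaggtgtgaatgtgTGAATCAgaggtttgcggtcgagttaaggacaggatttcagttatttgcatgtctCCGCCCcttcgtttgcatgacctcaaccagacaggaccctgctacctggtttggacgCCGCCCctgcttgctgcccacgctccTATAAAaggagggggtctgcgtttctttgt
Duox2, chr2:122298228-122298477, minus strand, GRCm38.p6: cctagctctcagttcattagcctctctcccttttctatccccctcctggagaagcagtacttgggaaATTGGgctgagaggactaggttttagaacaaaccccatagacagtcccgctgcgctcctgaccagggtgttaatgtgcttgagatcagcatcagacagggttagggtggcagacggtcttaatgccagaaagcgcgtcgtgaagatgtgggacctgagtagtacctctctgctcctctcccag

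The Duoxa1 window holds 3 matches to the GC box, of which 2 overlap, and 65.6% of its bases are G or C. The Duox1 window holds no match to any of these motifs, at 47.6% G or C. The Duoxa2 window holds a TATA box 25 to 30 bases before its start, along with 2 GC boxes and 1 AP-1 site. The Duox2 window holds 1 CCAAT box, on the other strand. Over 32851 promoter windows of the same length, the GC box is found in 32.7%, the TATA box in 12.4%, the CCAAT box in 33.8%, the AP-1 site in 6.75% and the p53 family half-site in 7.13%, with a median of 52.4% G or C. No p53 family half-site was found in these 4 windows, which says nothing about binding elsewhere. Among the windows of the other members, those of Nox1 and Nox4 hold 1 match each and that of Cyba holds none. Binding was not tested.

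The sexes and the levels were compared on contrasts that did not choose the members. The cKO effect did not pass the threshold for a difference between male and female arrays in any of the 5 tested members (limma, adjusted p = 1 for each; 15 genes or 0.0697% were called). For Duoxa1 the mean ratio was -1.48 in female and -1.70 in male arrays, a difference of -0.22 with a 95% interval from -0.75 to 0.31. For Duox1 it was -0.47 and -0.62, a difference of -0.15 with an interval from -0.68 to 0.38. These intervals allow a sex difference of over 0.3 in either direction. The fit has 1 residual degree of freedom and gave every gene the same variance. On the 2 arrays whose sex-linked genes match their labels, the Duoxa1 ratio was -1.48 (replicate 2, female) and -1.88 (replicate 3, male) and the Duox1 ratio -0.41 and -0.71, with no replicate check. These 2 arrays also differ in dye orientation, so sex and dye cannot be told apart there.

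The level in male minus female RNAs, over both genotypes, did not pass the threshold for any tested member (limma on separate channels; 4 genes or 0.0186% were called). Nox4 was 0.21 higher in male RNAs on the log2 scale (12.04 against 11.84; unadjusted p = 0.00723 and adjusted p = 0.208). In this contrast 2742 of 21517 genes had an unadjusted p under 0.05. The split Nox4 probe read 9.49 to 9.59 in female and 9.51 to 9.82 in male RNAs, which overlapped. Probe A_55_P1972039 read 10.606 to 10.838 and 10.842 to 11.086, so the ranges nearly touched. The share of all genes that separate like this between the sexes was not counted, so nothing is read from it. Duoxa1 was 0.21 higher (8.90 against 8.68; adjusted p = 0.437). Duox1 differed by 0.04, Duox2 by 0.003 and Cyba by -0.05, with adjusted p from 0.837 to 0.988 (limma). Xist itself, at -4.48, missed the threshold in this test (adjusted p = 0.0923), so a miss here says little.

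Genes with the most similar ratios were found by the Euclidean distance over the 4 arrays. The 5 nearest to Duoxa1 were Wnt6 (-1.64 ± 0.17, distance 0.29), a Wnt ligand, Upk3bl (-1.74 ± 0.18), a uroplakin relative, Sytl1 (-1.43 ± 0.22), Aldh1a7 (-1.55 ± 0.21) and an unnamed probe. Nearest to Duox1 were Nectin4 (-0.54 ± 0.16, distance 0.08), an adherens junction protein, Rtl3 (-0.54 ± 0.09), 4833428L15Rik (-0.55 ± 0.18), Myoz2 (-0.55 ± 0.19) and Ppp1r13l (-0.53 ± 0.08), an inhibitor of p53. The list for Duox2, whose ratios scatter around 0, included the uroplakin gene Upk3a (0.01 ± 0.11), Ackr2 (0.03 ± 0.11) and Ralgds (0.03 ± 0.10), with 2810427A07Rik and the array feature NAP112819-1. The smallest distance was 0.29 for Duoxa1 and 0.03 for Duox2.

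Among other genes of the pathway, 0 of 12 tested NADPH oxidase genes changed (limma, with 0 at an unadjusted p under 0.05). The list has 13 genes, with a median ratio of -0.06 against -0.000239 over all genes. Cybb, the phagocyte oxidase that shares Cyba, was at -0.07 ± 0.03 and Ncf1, its organizer, at -0.01 ± 0.34. Noxo1 and Noxa1, the organizer and activator of Nox1, were at 0.12 ± 0.15 and -0.06 ± 0.10. The small GTPase genes Rac1 and Rac2 were at -0.001 ± 0.15 and -0.13 ± 0.14. No gene of the list was beyond -0.13 or 0.12.

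Genes that use or remove hydrogen peroxide were looked at in the same way. With 1.19% of all genes called and 8.04% at an unadjusted p under 0.05, a count of 0 in lists this short is near the background. Of 5 haem peroxidases 3 were tested and 0 changed (limma; 1 lower at an unadjusted p under 0.05). Lpo, lactoperoxidase, which uses peroxide from dual oxidases in secretions, was at -0.21 ± 0.07, lower on all 4 arrays (adjusted p = 0.442). Of 20 genes for superoxide and peroxide removal, all 20 were tested and 0 changed (limma; 0 at an unadjusted p under 0.05), from -0.27 ± 0.28 (Gpx3, a secreted glutathione peroxidase) to 0.11 ± 0.10 (Sod1, a superoxide dismutase). Cat, catalase, was at 0.03 ± 0.19. Without replicate 4, 2 genes of this list were called, where 1602 of all 21518 genes were.

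Of 9 thyroid hormone genes, where Duox2 has its best known role, 5 were tested and 0 changed (limma; 0 at an unadjusted p under 0.05), with a median of 0.12. Slc5a5, the iodide importer, was at 0.10 ± 0.07 and Pax8, a transcription factor of thyroid and nephric lineage, at 0.21 ± 0.40. Without replicate 2, 1 gene of this list was called, where 937 of all 21518 genes were. Over the 4 lists together, 40 of 46 genes were tested.

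Cell type markers set the background for these values, since in whole ureters fewer cells of a type and less RNA per cell cannot be told apart. All 5 basal urothelium markers fell, among them Krt5, the basal keratin (-1.87 ± 0.42, adjusted p = 0.00352), and Cdh3, P-cadherin (-1.66 ± 0.42, adjusted p = 0.0019). Itgb4 (-1.45 ± 0.36), Krt15 (-1.19 ± 0.31) and Krt14 (-0.98 ± 0.29) were the others. Their summed intensity ranged from 17820 to 24590 in control and from 7247 to 8807 in cKO RNAs, with log2 ratios of -1.57, -1.02, -1.74 and -1.55 in replicates 1 to 4. With no filter on dim probes, 1 of the 5 was called. Their part in the Duoxa1 and Duox1 values was not tested. Of 5 luminal markers, Krt20 rose (1.92 ± 0.19, adjusted p = 0.00161) and Upk2 fell (-0.54 ± 0.11, adjusted p = 0.0369), and Upk1a (-0.01 ± 0.27), Upk1b and Upk3a did not pass. With processed signals, median centring, no filter on dim probes, no replicate block, or without replicate 1 or 3, 1 luminal marker was called. Of 5 epithelial markers Krt18 rose (0.50 ± 0.14, adjusted p = 0.0378), a call lost with processed signals, median centring, no filter on dim probes, or without replicate 1 or 3, while Epcam was at -0.10 ± 0.08. Without replicate 2, 3 epithelial markers were called, and without replicate 4 or with no replicate block 2 were. Krt8 was at 0.37 ± 0.19, above 0 on all 4 arrays, and did not pass (limma, adjusted p = 0.102). The summed epithelial intensity was 376700 to 422700 in control and 453000 to 482500 in cKO RNAs. Cdh1, E-cadherin, of the same list was at -0.40 ± 0.26, below 0 on all 4 arrays, and did not pass (limma, adjusted p = 0.302).

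Of 10 phagocyte markers 0 changed (limma; an unadjusted p under 0.05 for 4, all lower), against 8.04% of all genes, and the median was -0.19. Without replicate 4, 4 of them were called, where 1602 of all 21518 genes were. Their summed intensity was 43830 to 46470 in cKO and 46750 to 51010 in control RNAs, with log2 ratios of -0.14, -0.07, -0.03 and -0.19 in replicates 1 to 4. Its part in the Cyba and Cybb values was not tested. Of 6 endothelial, 5 smooth muscle and 4 mesenchymal markers 0 changed (limma; 1 mesenchymal gene, Foxf1, higher at an unadjusted p under 0.05). Leaving out 1 array gave 1 endothelial call (replicate 4) or 1 mesenchymal call (replicates 1 or 2). Over all 21518 genes, 362 were called without replicate 1, 937 without replicate 2 and 1602 without replicate 4. Of 6 nephron markers 4 were tested and Cubn rose (2.22 ± 0.28, adjusted p = 0.00177), while Lrp2 was at 0.37 ± 0.32 and did not pass. At an unadjusted p under 0.05 (limma), 2 nephron markers were higher. Without replicate 2, 3 of them were called, and without replicate 4, 2 of them.

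**Figure D4:**
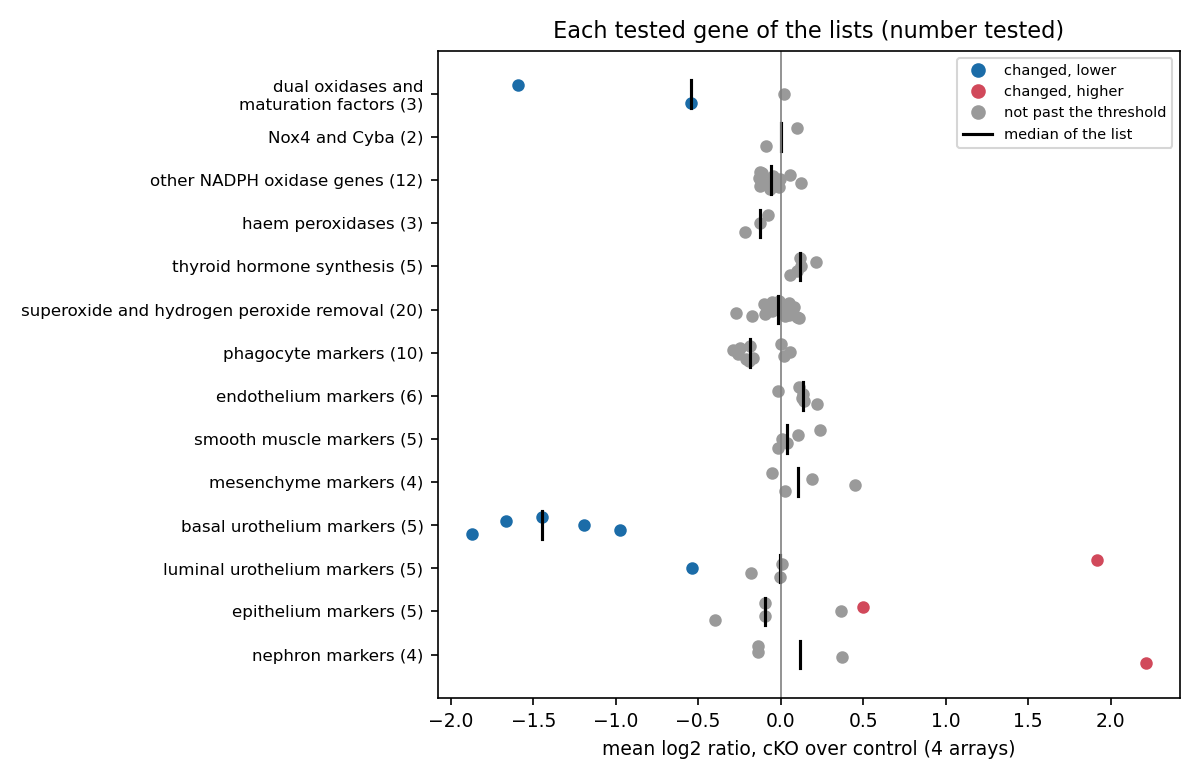
Mean log2 ratio of cKO over control over 4 arrays (x axis) for each tested gene of the members and of the other lists (rows, number tested in brackets), with the median of each row as a black bar. Every tested gene of the 4 pathway lists lies between -0.27 and 0.21, the 5 basal markers lie between -1.87 and -0.98, and Duoxa1 and Duox1 lie at -1.59 and -0.54.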

How the data were processed

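Spot intensity values (mean signal and median local background) were deposited as scanner files written by Agilent Feature Extraction, version 10.7.3.1 per the submitters' processing notes. The same deposited files hold processed intensity values and flags of other kinds. Probe positions are of build mm9, per the file headers, and the 4 arrays share 1 slide and 1 scan date. Each labelling used 200 ng of RNA, per the labels' protocols. The authors' deposited value table holds log2 ratios of cKO over control, found by setting it against the processed signals (slopes of 1.00, -1.00, 1.00 and -1 for red over green). It lists 32.2% to 32.6% of probes at exactly 0 by a rule not given in the sources used here, and genes listed at 0 on any array were left out when it was fitted, a choice made after seeing the data.

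Background was corrected with normexp (offset 50), log2 ratios were normalised by loess giving control spots weight 0, and 17 to 33 nonuniform spots per array were dropped. Probes were kept when, in at least 1 genotype, a share of 0.5 or more of the 4 spots exceeded background on every array (28611 of 39429 probes). The brightest kept probe stood for its gene. Names come from the files where RefSeq (GRCm38.p6) knows the symbol (30385 probes), from an accession (1343) or stay as in the file (7701). Ratios were fitted with limma 3.58.1 (R 4.3.3) with a dye intercept, so each array is the pair, and p-values are two-sided and adjusted over all genes tested. Levels are channel values after loess and Aquantile normalisation. Errors are SDs over 4 arrays, whose number limits the precision.

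On simulated ratios for 21518 genes (cKO over control, 5 rounds of 200 changed genes), recovery was 71.4% for 2-fold and 93.2% for 4-fold changes. Members and lists were chosen with earlier results of these data known. Named are all members, the 5 genes nearest to each tested dual oxidase or factor, changed genes of the other lists with up to 3 further ones, and, as examples chosen after their values were seen, further list genes and the neighbours at the locus. Some list genes are not reported here. Promoter windows for all 7 members were found in the RefSeq table.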

Additional observations from a re-analysis of the deposited data

Results flagged for a closer look

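For the bright Duoxa1 probe, replicate 3 stood apart from the other arrays at a log2 ratio of -1.88 against -1.48 to -1.52, with the gap making up 0.911 of the range. The split Duoxa1 probe, measured on the same RNAs, did the same at -1.12 against -0.66 to -0.71 (0.896 of the range). For Duox1 it was the control RNA of replicate 3 that stood apart, at 7.69 against 7.44 to 7.46 (0.911 of the range).

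For Nox4, the split probe stood apart in replicate 4, with a log2 ratio of -0.32 against -0.06 to -0.08 (0.895 of the range) and a control level of 9.82 against 9.57 to 9.60 (0.91 of the range). Another Nox4 probe, A_55_P1972039, stood apart in the cKO RNA of replicate 1, at 10.61 against 10.84 to 10.88 (0.855 of the range). In all, 6 of 27 groups of 4 values exceeded Dixon's critical value. Chance gives about 1 in 20, and the groups share RNAs and probes.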

How the results depend on the processing

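The Duox1 call was lost without replicate 3 and with no filter on dim probes, and no support is drawn from calls on the contrast that chose the members. The fitted ratios of Duoxa1 ran from -1.69 to -1.49 and those of Duox1 from -0.59 to -0.50 when each array was left out. On the deposited table they were -1.94 and -0.96. Genes changed numbered 86 with no filter on dim probes, 460 with no dye term and 283 (without replicate 3) to 1602 (without replicate 4) when an array was left out, with 937 without replicate 2. Without the pairing on the array, with no replicate block, 387 genes changed. Of the other lists' genes 9 changed, 3 with no filter on dim probes and 7 to 18 when an array was left out. Genes with a sex difference in the cKO effect numbered 15, 34 with processed signals and 0 with no filter on dim probes (limma; 178 at an unadjusted p under 0.05). Genes with a level difference between the sexes numbered 4, 50 with median centring and 8 with no filter on dim probes. The causes were not tested. A slide block was not run, since all arrays lie on 1 slide. Duox1, Duox2, Duoxa2 and Nox1 are limited by signal near background.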
